A study of Mus musculus with 4 samples.

Results

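The mouse genes of the cathepsins, the lysosomal membrane proteins of the LAMP and mucolipin families, and the subunits of the vacuolar ATPase were followed in 4 chimeric embryos. They were chosen by symbol (cathepsins with a single letter after Cts, Lamp1 to Lamp3, Mcoln1 to Mcoln3, and every symbol that begins with Atp6v0 or Atp6v1), and a gene was kept when it had 10 or more counts in at least 2 embryos. Of 39179 genes listed, 48 had a matching symbol and 35 of these were kept: 10 cathepsins, 6 LAMP and mucolipin genes, 9 genes of the V0 sector of the ATPase, of which 1 is a pseudogene, and 10 of the V1 sector. The count rule alone was met by 16112 of the listed genes.

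The embryos fell into 2 groups of 2. Both were made by injecting mouse embryonic stem cells (ESCs) grown in 2i medium, which holds ESCs in an undifferentiated state, into 8-cell host embryos of an ARC x RLZRFP cross. The first group received FLAG-Lhx1 ESCs and the second FLAG-Lhx1-mt ESCs, a line also written with a delta sign; Lhx1 encodes a LIM-homeodomain transcription factor needed for head formation. In both groups the foster mothers drank 2 mg/mL doxycycline (2.31 mg/mL as the hyclate) with 5% sucrose for the last 24 hours, and the embryos, which were delayed by roughly a day, were dissected at E8.5 with the morphology of E7.75. No embryo without doxycycline or without injected ESCs is among the samples, so every value compares FLAG-Lhx1 with FLAG-Lhx1-mt embryos. Each embryo mixes descendants of the injected ESCs with host cells, in proportions the labels do not give. The labels also do not say which part of LHX1 the mt form alters, whether each line is 1 clone, or whether the embryos of a group came from separate litters, so p-values measure the spread between these samples.

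Lysosomes digest what a cell takes up or wishes to recycle. Cathepsins are the proteases inside them, LAMP proteins coat their membrane, and mucolipins are cation channels that release calcium from them. The vacuolar ATPase (V-ATPase) keeps the lumen acid: its V1 sector on the cytosolic side splits ATP and turns a rotor, and the ring of proteolipids in its membrane sector, V0, carries the protons. In the mouse embryo at gastrulation the visceral endoderm, the outer layer that takes up maternal proteins, is rich in large acid vacuoles and lysosomal enzymes.

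Total counts were 25272436 and 21267116 in the FLAG-Lhx1 embryos and 23088545 and 30434442 in the FLAG-Lhx1-mt embryos. Values are given as CPM, the library's share of counts in tested genes scaled by the TMM method; 3 counts of a library's total, the upper limit that a count of 0 allows, are worth 0.0986 to 0.141 CPM and cover counting error only. Lhx1 itself, for which transgene and endogenous reads cannot be told apart, had 128.6 and 114 CPM in FLAG-Lhx1 embryos and 126 and 98.5 CPM in FLAG-Lhx1-mt embryos, a log2 fold change of 0.11 ± 0.16 (SE; adjusted p = 0.733, edgeR), so its total level does not separate the groups. A gene was called when edgeR's quasi-likelihood test gave an adjusted p under 0.05 over the 15822 genes tested. By this rule 415 genes were higher and 561 lower in FLAG-Lhx1 embryos, against 472 higher and 395 lower with upper-quartile scaling, and the median log2 fold change of all tested genes was 0.01.

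Of the 35 members, 10 were called lower in FLAG-Lhx1 than in FLAG-Lhx1-mt embryos and 0 higher, where 3.55% of all tested genes were called lower, 2.62% higher and 6.17% in either direction. At an unadjusted p under 0.05, 15 members were lower and 1 higher, where 21.3% of all tested genes passed in either direction. DESeq2 likewise called 10 lower and 0 higher. The calls took in 6 of 10 cathepsins, 1 of 6 LAMP and mucolipin genes, 3 of 9 V0 genes and 0 of 10 V1 genes; the differences between roles were not tested. Of the V1 genes, 3 were lower at an unadjusted p under 0.05 and 0 higher, and DESeq2 called 0. The median log2 fold change was -0.66 over the cathepsins, 0.09 over the LAMP and mucolipin genes, -0.26 over the V0 genes (-0.18 without the pseudogene) and -0.08 over the V1 genes. These medians depended on single embryos: without replicate 1 of FLAG-Lhx1-mt they were -0.50, 0.18, -0.11 and 0.088 in the same order, without FLAG-Lhx1 replicate 2 they were -0.57, 0.02, -0.15 and 0.02, without FLAG-Lhx1 replicate 1 -0.77, -0.20, -0.34 and -0.13, and without replicate 2 of FLAG-Lhx1-mt -0.77, -0.07, -0.29 and -0.14. In 18 members each FLAG-Lhx1 embryo was below each FLAG-Lhx1-mt embryo and in 2 each was above (background 25.8% and 26.4% of tested genes), and in 15 the groups overlapped.

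**Figure D1:**
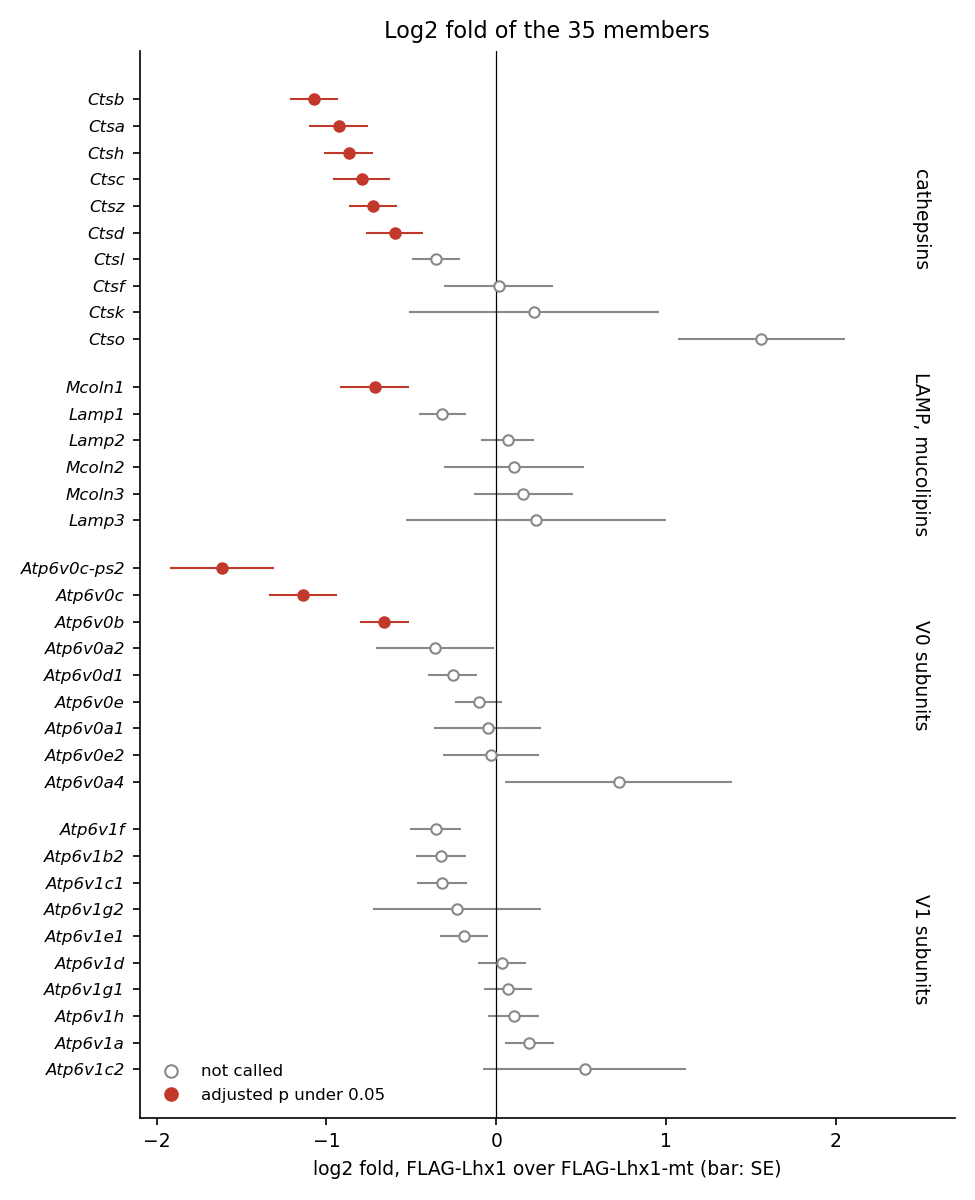
Log2 fold change of FLAG-Lhx1 over FLAG-Lhx1-mt embryos (x axis, edgeR) for each of the 35 members, one row per gene, grouped by role; points are estimates, bars are 1 SE, filled points passed the adjusted p of 0.05. The 10 filled points all lie left of 0, 6 of them among the cathepsins and none among the V1 genes.

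Fold changes of the called members ran between -1.61 and -0.60 on the log2 scale. Of 22 members with a mean over 10 CPM, 9 were called lower, where 5.96% of all tested genes at that level were called lower and 3.54% higher. The 13 members over 10 CPM that were not called had log2 fold changes between -0.36 and 0.20 with SEs of 0.14 to 0.16. The 12 not called at 10 CPM or less had SEs of 0.28 to 0.77, so a change of the size found in Ctsd (-0.60) was not detectable in them at this depth. Leaving out embryos in turn kept all 10 called members below 0. Omitting FLAG-Lhx1 replicate 2 reduced the calls to 5, namely Ctsa, Ctsb, Ctsh, Atp6v0c and its pseudogene Atp6v0c-ps2.

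Promoters of lysosomal genes often hold the CLEAR element, a palindrome bound by the transcription factor TFEB and its relatives, whose core TCACGTGA contains the shorter E-box CACGTG. RefSeq windows of 300 bases (250 before and 50 after the annotated start, build GRCm38.p6) were matched for 27 of the 35 members; Ctsb, Ctsh, Atp6v0a2, Atp6v0c-ps2, Atp6v1b2, Atp6v1c1, Atp6v1g1 and Atp6v1h had none. The core was found in 0.974% of all 32851 windows and in 1.125% of the 27025 genes they cover. Among the 27 members with a window it was found in 6. They were 3 of the 7 called (Ctsa, Ctsd and Mcoln1) and 3 of the 20 not called (Atp6v0d1, Atp6v0e and Atp6v1a). CACGTG was in 7.15% of windows and 8.09% of genes. It was in 11 members, 4 of the 7 called members with a window and 7 of the 20 not called. The longer palindrome, which adds G before the core and C after it, was in 0.326% of windows, 0.37% of genes and 0 members. All these strings read the same on either strand, and each shorter one lies inside the longer. The sites of the 6 members are shown 5′ to 3′ on the gene's strand with the core in capitals and 10 bases on each side, because called and uncalled members can be compared in them:
Ctsa, 13 bases before the start, chr2:164833750-164833777 (+): gagcaaactgTCACGTGAtgcagatgct
Ctsa, 4 bases after the start, chr2:164833767-164833794 (+): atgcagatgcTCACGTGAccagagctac
Ctsd, 99 bases before the start, chr7:142387909-142387936 (-): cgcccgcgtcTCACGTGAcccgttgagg
Mcoln1, 46 bases before the start, chr8:3500463-3500490 (+): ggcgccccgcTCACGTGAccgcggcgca
Atp6v0d1, 4 bases before the start, chr8:105566051-105566078 (-): cctactgcggTCACGTGAgacgcggtgc
Atp6v0e, 2 bases after the start, chr17:26676388-26676415 (+): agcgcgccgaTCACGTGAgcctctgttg
Atp6v1a, 132 bases before the start, chr16:44139374-44139401 (-): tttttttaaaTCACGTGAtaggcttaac
The starts are those of RefSeq, while the gene spans printed elsewhere are from GENCODE. A site before a RefSeq start can thus lie inside a printed span, as in Ctsa, Ctsd and Mcoln1. A match describes letters in a window, not a bound site.

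The cathepsins held most of the calls. Their summed level was 1207 and 1158 CPM in the FLAG-Lhx1 embryos, against 1872 and 1721 CPM in the FLAG-Lhx1-mt embryos. Ctsb, Ctsh, Ctsa, Ctsc, Ctsz and Ctsd fell in FLAG-Lhx1 embryos. The most abundant of all, Ctsl, was not called.

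Ctsb (cathepsin B, a cysteine protease with endopeptidase and carboxypeptidase action; chr14:63122462-63145923, GRCm38) had 104.9 and 98.5 CPM in FLAG-Lhx1 embryos and 224.9 and 202.9 CPM in FLAG-Lhx1-mt embryos. The means were 101.7 ± 4.47 and 213.9 ± 15.6 CPM (SD, n = 2 each), and the groups were far apart. The log2 fold change of -1.07 ± 0.14 (SE), a level 52.4% lower, had the smallest adjusted p of the members (0.000482, edgeR). Ctsh (cathepsin H, an aminopeptidase; chr9:90054152-90076089) had 93.2 and 105.5 CPM in FLAG-Lhx1 embryos and 191.8 and 170.9 CPM in FLAG-Lhx1-mt embryos. It fell by 0.87 ± 0.15 on the log2 scale (adjusted p = 0.00278, edgeR). Ctsa (cathepsin A, a serine carboxypeptidase that also protects other lysosomal enzymes; chr2:164832873-164841032) had 27.9 and 29.5 CPM in FLAG-Lhx1 embryos and 61.9 and 47.4 CPM in FLAG-Lhx1-mt embryos, a log2 fold change of -0.93 ± 0.17 (adjusted p = 0.00577, edgeR). In Ctsa the 2 FLAG-Lhx1 embryos lay close together and the 2 FLAG-Lhx1-mt embryos further apart, yet both stood above them. Exons of genes on the other strand cover 12.8% of Ctsb's exon bases and 17.4% of Ctsa's, and with the strand setting of the counting unknown, those reads could not be separated.

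Ctsc (cathepsin C, a dipeptidyl peptidase that activates granule proteases; chr7:88278085-88310888) had 168.7 and 141.5 CPM in FLAG-Lhx1 embryos and 312.6 and 225.1 CPM in FLAG-Lhx1-mt embryos. Its FLAG-Lhx1-mt embryos differed most from each other among the called cathepsins in CPM, and the log2 fold change was -0.79 ± 0.17 (adjusted p = 0.0130, edgeR). Ctsz (cathepsin Z, a carboxypeptidase; chr2:174427493-174439039) had 151.1 and 139.5 CPM in FLAG-Lhx1 embryos and 251 and 229.8 CPM in FLAG-Lhx1-mt embryos, with -0.73 ± 0.14 (adjusted p = 0.00732, edgeR). Ctsd (cathepsin D, the main aspartic protease of lysosomes; chr7:142375911-142388038) had 35.8 and 31.2 CPM in FLAG-Lhx1 embryos and 55.6 and 46 CPM in FLAG-Lhx1-mt embryos, with -0.60 ± 0.17 (adjusted p = 0.0466, edgeR). The groups did not overlap in any of these, but the calls were less firm. Omitting FLAG-Lhx1 replicate 2 ended the calls of Ctsc (-0.66) and Ctsz (-0.66). That of Ctsd ended when either FLAG-Lhx1 embryo was omitted (-0.73 and -0.49 for replicates 1 and 2) and when replicate 1 of FLAG-Lhx1-mt was (-0.46).

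Ctsl (cathepsin L, a cysteine endopeptidase; chr13:64359337-64370890) had 616.9 and 605 CPM in FLAG-Lhx1 embryos and 768.9 and 792.4 CPM in FLAG-Lhx1-mt embryos. The groups did not overlap, but its log2 fold change of -0.35 ± 0.14 did not pass the test (adjusted p = 0.164, edgeR). Ctsl made up 51.1% and 52.2% of all cathepsin CPM in FLAG-Lhx1 embryos, against 41.1% and 46% in FLAG-Lhx1-mt embryos. The CPM of Ctsb was 17% and 16.3% of that of Ctsl in FLAG-Lhx1 embryos and 29.2% and 25.6% in FLAG-Lhx1-mt embryos; with 2 embryos against 2 an exact permutation test of such a ratio cannot give a two-sided p below 0.333. Per kilobase of principal transcript the order of levels was Ctsz (134 CPM per kb over all 4 embryos), Ctsl (113), Ctsc (85), Ctsh (51.2), Ctsb (33.3), Ctsd (19.8) and Ctsa (11.4). The place of Ctsl depends on the length taken for it, here the 6168 bases of its principal transcript.

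**Figure D2:**
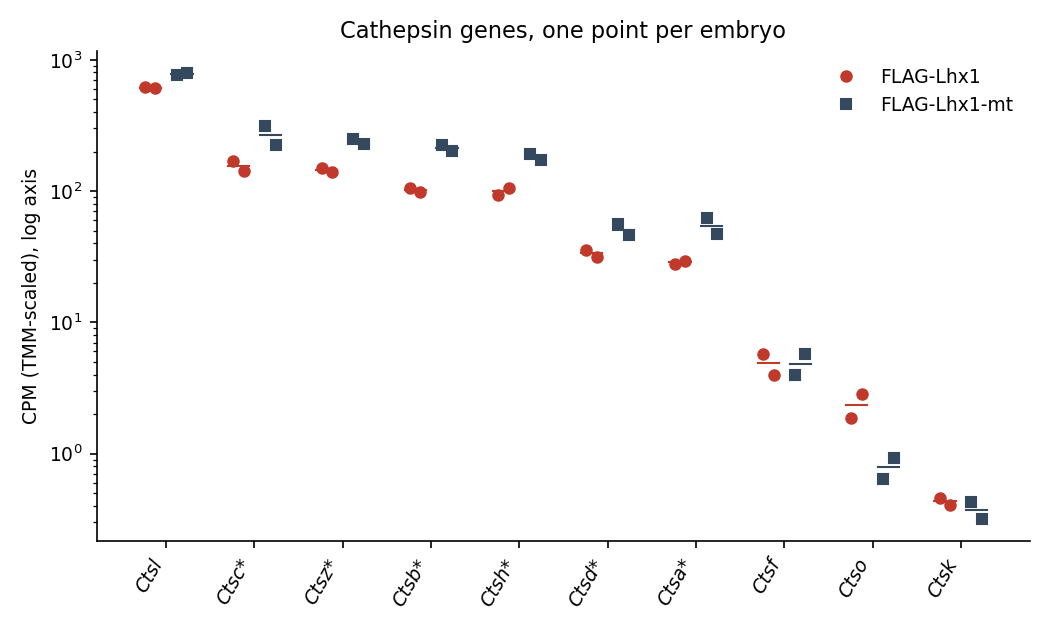
CPM on a log axis for each of the 10 cathepsins kept, in FLAG-Lhx1 embryos (circles, left of each pair) and FLAG-Lhx1-mt embryos (squares, right of each pair); each point is 1 embryo, a horizontal line is the group mean and an asterisk marks a called gene. The 6 genes with an asterisk have both circles below both squares; Ctso has both circles above both squares without a call.

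The other 3 cathepsins were scarce. Ctso, a cysteine cathepsin, had 1.87 and 2.85 CPM in FLAG-Lhx1 embryos and 0.644 and 0.927 CPM in FLAG-Lhx1-mt embryos, a log2 fold change of 1.56 ± 0.49 (adjusted p = 0.0757, edgeR). Among the 10 cathepsins kept, it was the only one with both FLAG-Lhx1 embryos above both FLAG-Lhx1-mt embryos. With replicate 2 of FLAG-Lhx1-mt left out it was called higher, at a log2 fold change of 1.84. Ctsf, another cysteine cathepsin, had 5.76 and 3.97 CPM in FLAG-Lhx1 embryos and 3.95 and 5.69 CPM in FLAG-Lhx1-mt embryos, and Ctsk, known from bone-resorbing osteoclasts, had 0.458 and 0.407 CPM in FLAG-Lhx1 embryos and 0.430 and 0.320 CPM in FLAG-Lhx1-mt embryos.

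The other matching cathepsin genes were below the count rule in these embryos and were not tested. Ctse, an aspartic protease, came nearest with 8 and 12 counts in FLAG-Lhx1 embryos and 1 and 7 counts in FLAG-Lhx1-mt embryos, whereas Ctsk was just inside the rule with 12 and 8 counts in FLAG-Lhx1 embryos and 10 and 10 counts in FLAG-Lhx1-mt embryos. The cathepsins of leukocytes, Ctsg, Ctss and Ctsw, had at most 6 counts in any embryo. The rodent placental cathepsins Ctsj, Ctsm, Ctsq and Ctsr also had at most 6.

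Among the membrane proteins the mucolipin channel and not the LAMPs was called. Mcoln1 (mucolipin 1, the lysosomal calcium channel whose loss causes mucolipidosis type IV in humans; chr8:3500457-3515232) had 12.7 and 12 CPM in FLAG-Lhx1 embryos and 21 and 19.7 CPM in FLAG-Lhx1-mt embryos. The groups did not overlap, and its log2 fold change of -0.72 ± 0.20 only just passed (adjusted p = 0.0483, edgeR). This call ended when either FLAG-Lhx1 embryo was omitted (-0.79 and -0.66 for replicates 1 and 2) and when replicate 1 of FLAG-Lhx1-mt was (-0.68). Lamp1, a heavily glycosylated protein that lines the lysosomal membrane, was the most abundant of this group at 111 CPM per kb. It had 222.2 and 219.6 CPM in FLAG-Lhx1 embryos and 271.1 and 279.3 CPM in FLAG-Lhx1-mt embryos, separate groups with a log2 fold change of -0.32 ± 0.14 that did not pass (adjusted p = 0.196, edgeR). Of Lamp1's exon bases, 9.31% are shared with a gene on the other strand, whose reads could not be separated. Lamp2, its relative that also acts as the receptor of chaperone-mediated autophagy, had 59.4 and 58.2 CPM in FLAG-Lhx1 embryos and 61.8 and 50.5 CPM in FLAG-Lhx1-mt embryos. Here the groups overlapped (0.07 ± 0.16). The CPM of Ctsb was 47.2% and 44.9% of that of Lamp1 in FLAG-Lhx1 embryos and 83% and 72.6% in FLAG-Lhx1-mt embryos, while Ctsl and Lamp1 had log2 fold changes close to each other (-0.35 and -0.32).

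The remaining membrane genes were low. Mcoln3, a mucolipin of endosomes, had 6.95 and 5.49 CPM in FLAG-Lhx1 embryos and 6.44 and 4.76 CPM in FLAG-Lhx1-mt embryos. Mcoln2 had 1.87 and 2.34 CPM in FLAG-Lhx1 embryos and 2.02 and 1.89 CPM in FLAG-Lhx1-mt embryos. Lamp3, known from mature dendritic cells, was just inside the rule with 20 and 4 counts in FLAG-Lhx1 embryos and 10 and 13 in FLAG-Lhx1-mt embryos.

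In the V0 sector the calls fell on the proteolipid ring. Atp6v0c, which encodes subunit c, the main proteolipid (chr17:24163866-24169702), had 12.4 and 11.8 CPM in FLAG-Lhx1 embryos and 29.2 and 24.1 CPM in FLAG-Lhx1-mt embryos. Its log2 fold change of -1.14 ± 0.20 (adjusted p = 0.00417, edgeR) was a level 54.5% lower. Atp6v0b, which encodes the related proteolipid c″ (chr4:117884326-117887333), had 76.6 and 71.4 CPM in FLAG-Lhx1 embryos and 121.3 and 112.5 CPM in FLAG-Lhx1-mt embryos, with -0.66 ± 0.14 (adjusted p = 0.0142, edgeR). Both genes had separate groups with little spread inside them. Omitting FLAG-Lhx1 replicate 2 ended the call of Atp6v0b (-0.60), and 11.8% of its exon bases are shared with a gene on the other strand.

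The third V0 call was not an independent gene. Atp6v0c-ps2 (chr6:37806086-37806550), a processed pseudogene of Atp6v0c, had 3.17 and 2.29 CPM in FLAG-Lhx1 embryos and 9.36 and 7.48 CPM in FLAG-Lhx1-mt embryos, with -1.61 ± 0.31 (adjusted p = 0.00615, edgeR). It is identical to the Atp6v0c transcript at 464 of 465 aligned bases, with a longest identical run of 354 bases against reads of 100 bp, so reads of the 2 copies cannot be told apart over most of it. With its counts added to those of Atp6v0c, a choice made after seeing the data, the sum had a log2 fold change of -1.24 (adjusted p = 0.00157, edgeR), and 2 of 8 V0 genes and 9 members in all were called lower. The level of Atp6v0c itself is therefore uncertain, and the direction is shared by both entries.

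The other V0 genes were not called. Atp6v0e, encoding the small subunit e, had 234 and 219.2 CPM in FLAG-Lhx1 embryos and 243.3 and 243.5 CPM in FLAG-Lhx1-mt embryos (log2 fold change -0.10 ± 0.14). Atp6v0d1, encoding the subunit d that couples the ring to the V1 rotor, had 77.2 and 86.6 CPM in FLAG-Lhx1 embryos and 98.1 and 97.6 CPM in FLAG-Lhx1-mt embryos (-0.26 ± 0.14, adjusted p = 0.327, edgeR). In both genes the FLAG-Lhx1 embryos were the lower ones, by less than the test could call. Atp6v0e2, a second gene for subunit e, was near 6 CPM, with 7.29 and 5.14 in FLAG-Lhx1 embryos and 6.18 and 6.55 in FLAG-Lhx1-mt embryos. Per kilobase, Atp6v0b (95.5 CPM per kb), Atp6v0e (83.6) and Atp6v0d1 (55.2) led the sector. Their order depends on whether principal transcripts or merged exons are taken as the length. Atp6v0c stood at 16.4 CPM per kb, but its place is uncertain because of its near-identical pseudogene.

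The V1 sector showed no called gene. Its summed level was 1367 and 1446 CPM in FLAG-Lhx1 embryos and 1544 and 1532 CPM in FLAG-Lhx1-mt embryos. Atp6v1f, encoding the rotor subunit F, had the highest level per length of all members (567 CPM per kb), with 317.9 and 381 CPM in FLAG-Lhx1 embryos and 424.2 and 470.9 CPM in FLAG-Lhx1-mt embryos. Its log2 fold change of -0.36 ± 0.15 was the most negative of the sector and did not pass (adjusted p = 0.179, edgeR). Atp6v1g1, encoding the peripheral stalk subunit G (292 CPM per kb), had 320.4 and 359.5 CPM in FLAG-Lhx1 embryos and 327 and 320.6 CPM in FLAG-Lhx1-mt embryos, overlapping groups with 0.07 ± 0.14. Atp6v1a, encoding the catalytic subunit A, had 148.8 and 126.4 CPM in FLAG-Lhx1 embryos and 115.1 and 125.2 CPM in FLAG-Lhx1-mt embryos. It was the only V1 gene with both FLAG-Lhx1 embryos above both FLAG-Lhx1-mt embryos (0.20 ± 0.15, adjusted p = 0.479, edgeR).

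The other V1 subunits lay between these. Atp6v1b2, for the nucleotide-binding subunit B, had 118.5 and 116.9 CPM in FLAG-Lhx1 embryos and 161.5 and 133.6 CPM in FLAG-Lhx1-mt embryos (-0.33 ± 0.15). Atp6v1c1, for subunit C that joins the sectors, had 105.8 and 125.5 CPM in FLAG-Lhx1 embryos and 148.2 and 140.5 CPM in FLAG-Lhx1-mt embryos (-0.32 ± 0.15). With Atp6v1f these were the 3 of 10 V1 genes at an unadjusted p under 0.05, where 21.3% of all tested genes passed in either direction. In all 3 both FLAG-Lhx1 embryos were below both FLAG-Lhx1-mt embryos, as in 25.8% of all tested genes. Atp6v1e1, for the stalk subunit E, had 125.8 and 115.1 CPM in FLAG-Lhx1 embryos and 140.3 and 134.7 CPM in FLAG-Lhx1-mt embryos (-0.19 ± 0.14). Atp6v1d, for the central stalk subunit D, and Atp6v1h, for the regulatory subunit H, had overlapping groups with log2 fold changes of 0.03 and 0.10.

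**Figure D3:**
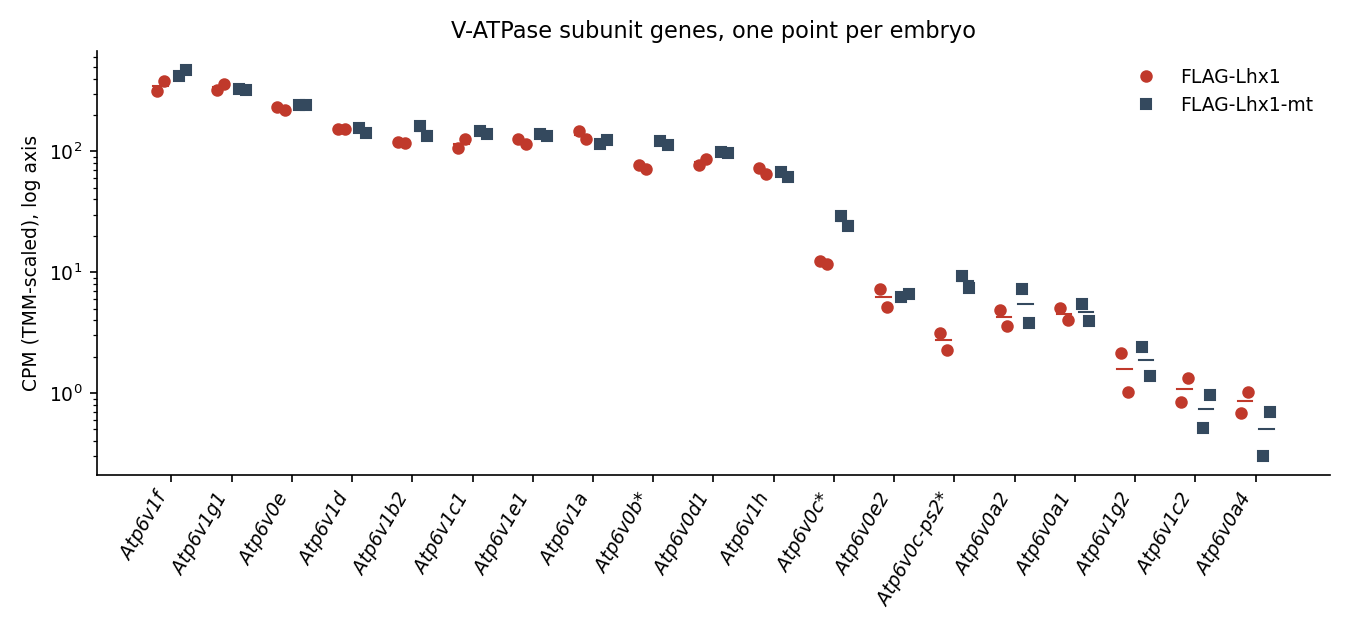
CPM on a log axis for the V0 and V1 genes kept, in FLAG-Lhx1 embryos (circles, left of each pair) and FLAG-Lhx1-mt embryos (squares, right of each pair); each point is 1 embryo, a horizontal line is the group mean and an asterisk marks a called gene. Only Atp6v0b, Atp6v0c and the pseudogene Atp6v0c-ps2 carry an asterisk, with both circles below both squares.

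The ring was also set against V1 subunits within each embryo. The CPM of Atp6v0c was 8.31% and 9.34% of that of Atp6v1a in FLAG-Lhx1 embryos and 25.3% and 19.2% in FLAG-Lhx1-mt embryos. For Atp6v0b the ratio to Atp6v1a was 51.5% and 56.5% in FLAG-Lhx1 embryos and 105.4% and 89.9% in FLAG-Lhx1-mt embryos. Both ratios were separate between the groups, but Atp6v1a is the V1 gene whose FLAG-Lhx1 embryos both lay higher, and the pairs were chosen with these values known. Against Atp6v1f, the V1 gene of highest level, Atp6v0c stood at 3.89% and 3.10% in FLAG-Lhx1 embryos and 6.88% and 5.11% in FLAG-Lhx1-mt embryos. Atp6v0b stood at 24.1% and 18.7% of Atp6v1f in FLAG-Lhx1 embryos and 28.6% and 23.9% in FLAG-Lhx1-mt embryos, where the groups overlapped.

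Several subunits have alternative genes, and the embryos used mainly the widely expressed forms. Subunit a, which anchors the complex and in part decides in which organelle it sits, was low in the 3 forms that the symbol rule takes in (the form named Tcirg1 is not analysed here). Atp6v0a1 had 5.04 and 4.02 CPM in FLAG-Lhx1 embryos and 5.50 and 3.93 CPM in FLAG-Lhx1-mt embryos. Atp6v0a2 had 4.89 and 3.61 CPM in FLAG-Lhx1 embryos and 7.22 and 3.80 CPM in FLAG-Lhx1-mt embryos. Atp6v0a4, the kidney form, was just inside the rule with 18 and 20 counts in FLAG-Lhx1 embryos and 7 and 22 counts in FLAG-Lhx1-mt embryos. In these 3 genes the groups overlapped. Atp6v1c2 had 0.840 and 1.32 CPM in FLAG-Lhx1 embryos and 0.515 and 0.959 CPM in FLAG-Lhx1-mt embryos, and Atp6v1g2, a neuronal form, had 2.14 and 1.02 CPM in FLAG-Lhx1 embryos and 2.41 and 1.37 CPM in FLAG-Lhx1-mt embryos. Both stood far below Atp6v1c1 and Atp6v1g1, at 0.579 and 1.13 CPM per kb against 62.8 and 292 CPM per kb.

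Other tissue forms were below the rule. Atp6v0d2, known from osteoclasts, had 13 and 1 counts in FLAG-Lhx1 embryos and 2 and 9 counts in FLAG-Lhx1-mt embryos. Atp6v1b1, of kidney intercalated cells, had 6 and 0 counts in FLAG-Lhx1 embryos and 4 and 12 counts in FLAG-Lhx1-mt embryos. Atp6v1g3, of kidney, had 3 and 1 counts in FLAG-Lhx1 embryos and 0 and 4 counts in FLAG-Lhx1-mt embryos, and Atp6v1e2, of testis, had 2 and 0 counts in FLAG-Lhx1 embryos and 0 and 0 counts in FLAG-Lhx1-mt embryos. Atp6v1fnb, which the symbol rule takes in as the neighbour of Atp6v1f although it is no subunit, had 0 and 0 counts in FLAG-Lhx1 embryos and 0 and 1 counts in FLAG-Lhx1-mt embryos.

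The rest of the lysosomal system was read from 6 further lists. Together 136 of their genes were tested, of which 10 were called lower in FLAG-Lhx1 embryos and 1 higher, with a median log2 fold change of -0.20; over all tested genes 3.55% were called lower and 2.62% higher, against which each list's count is to be read. Among 40 other lysosomal enzymes and activators, 3 fell and 0 rose. Lgmn, the asparaginyl endopeptidase legumain that cleaves cathepsins into their mature chains, had 131.8 and 140.9 CPM in FLAG-Lhx1 embryos and 289.8 and 211.8 CPM in FLAG-Lhx1-mt embryos (-0.88 ± 0.16, adjusted p = 0.00528, edgeR). Acp5, tartrate-resistant acid phosphatase, and Scpep1, a serine carboxypeptidase related to Ctsa, were the other 2 (-1.19 ± 0.31 and -0.59 ± 0.17, adjusted p = 0.0360 and 0.0483, edgeR). This list had 1 call when FLAG-Lhx1 replicate 2 was omitted and 7 when replicate 2 of FLAG-Lhx1-mt was. The call of Scpep1 ended when either FLAG-Lhx1 embryo (-0.50 and -0.70 for replicates 1 and 2) or replicate 1 of FLAG-Lhx1-mt (-0.45) was omitted. That of Acp5 ended with FLAG-Lhx1 replicate 2 (-0.88) or replicate 1 of FLAG-Lhx1-mt (-0.89) omitted.

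Among 28 other lysosomal membrane proteins, 3 fell and 0 rose. Tmem192 had 29 and 29.7 CPM in FLAG-Lhx1 embryos and 52.4 and 53.1 CPM in FLAG-Lhx1-mt embryos (-0.85 ± 0.16, adjusted p = 0.00574, edgeR), with almost no spread in either group. Spns1, a lysosomal phospholipid transporter (-0.86 ± 0.22, adjusted p = 0.0318, edgeR), and the tetraspanin Cd63 (-0.56 ± 0.16, adjusted p = 0.0484, edgeR) were the others. Of these calls, those of Lgmn and Tmem192 held whichever embryo was left out. Omitting FLAG-Lhx1 replicate 2 ended the call of Spns1 (-0.66). Omitting replicate 1 of either group ended that of Cd63 (-0.41 in the case of FLAG-Lhx1 and -0.45 in that of FLAG-Lhx1-mt).

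A pair of further lists bears on the V-ATPase and on the nutrient sensor docked at it. Of 12 tested accessory and assembly factors, 3 fell and 0 rose: Atp6ap1, an accessory subunit bound inside the V0 ring (66.7 and 52.4 CPM in FLAG-Lhx1 embryos, 113.6 and 86.1 CPM in FLAG-Lhx1-mt embryos; -0.74 ± 0.17, adjusted p = 0.0191, edgeR), Rogdi, a member of the complex that reassembles V1 on V0 (-0.92 ± 0.24, adjusted p = 0.0356, edgeR), and Ccdc115, an assembly factor of V0 (-0.64 ± 0.18, adjusted p = 0.0481, edgeR). With FLAG-Lhx1 replicate 2 omitted, 0 of the 12 were called and the log2 fold changes of these 3 were -0.57, -0.80 and -0.69; with replicate 1 of FLAG-Lhx1-mt omitted, Atp6ap1 alone of these 3 was called (-0.59 for Rogdi and -0.43 for Ccdc115), and 1 other gene of the list was called higher. Omitting FLAG-Lhx1 replicate 1 also ended the call of Ccdc115 (-0.60). Of 24 genes for TFEB-type transcription factors and the lysosomal mTORC1 machinery, 1 fell and 0 rose, a share near that of all tested genes (3.55% lower). This was Lamtor1, which anchors the Ragulator complex to the lysosome, with 52.1 and 48.9 CPM in FLAG-Lhx1 embryos and 80.3 and 82.8 CPM in FLAG-Lhx1-mt embryos (-0.69 ± 0.15, adjusted p = 0.0129, edgeR). Omitting FLAG-Lhx1 replicate 2 ended this call (-0.63), and omitting FLAG-Lhx1 replicate 1 or replicate 2 of FLAG-Lhx1-mt gave the list 2 and 3 calls.

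The last pair of lists concerned how cathepsins reach the lysosome and what restrains them. Of 25 delivery genes, 0 fell and 1 rose, a share near that of all tested genes (2.62% higher). Igf2r, the large mannose 6-phosphate receptor that carries newly made enzymes to the lysosome, had 70.3 and 81.1 CPM in FLAG-Lhx1 embryos and 42.1 and 51.7 CPM in FLAG-Lhx1-mt embryos (0.69 ± 0.16, adjusted p = 0.0196, edgeR). It was the only called gene of the 6 lists with the opposite direction, and its call ended when FLAG-Lhx1 replicate 2 was omitted (0.59). Of 7 tested inhibitors of cathepsins, 0 were called by edgeR, while DESeq2 called 1 lower. At an unadjusted p under 0.05, 1 was lower, where 21.3% of all tested genes passed in either direction. Cstb, the cytosolic inhibitor cystatin B, had 186.9 and 195.3 CPM in FLAG-Lhx1 embryos and 252.3 and 270.4 CPM in FLAG-Lhx1-mt embryos (-0.45 ± 0.14, adjusted p = 0.0676, edgeR; 0 to 1 calls over the embryos left out). Cst3, the secreted inhibitor cystatin C, had 261.7 and 295.2 CPM in FLAG-Lhx1 embryos and 303.9 and 324.4 CPM in FLAG-Lhx1-mt embryos (-0.17 ± 0.14).

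**Figure D4:**
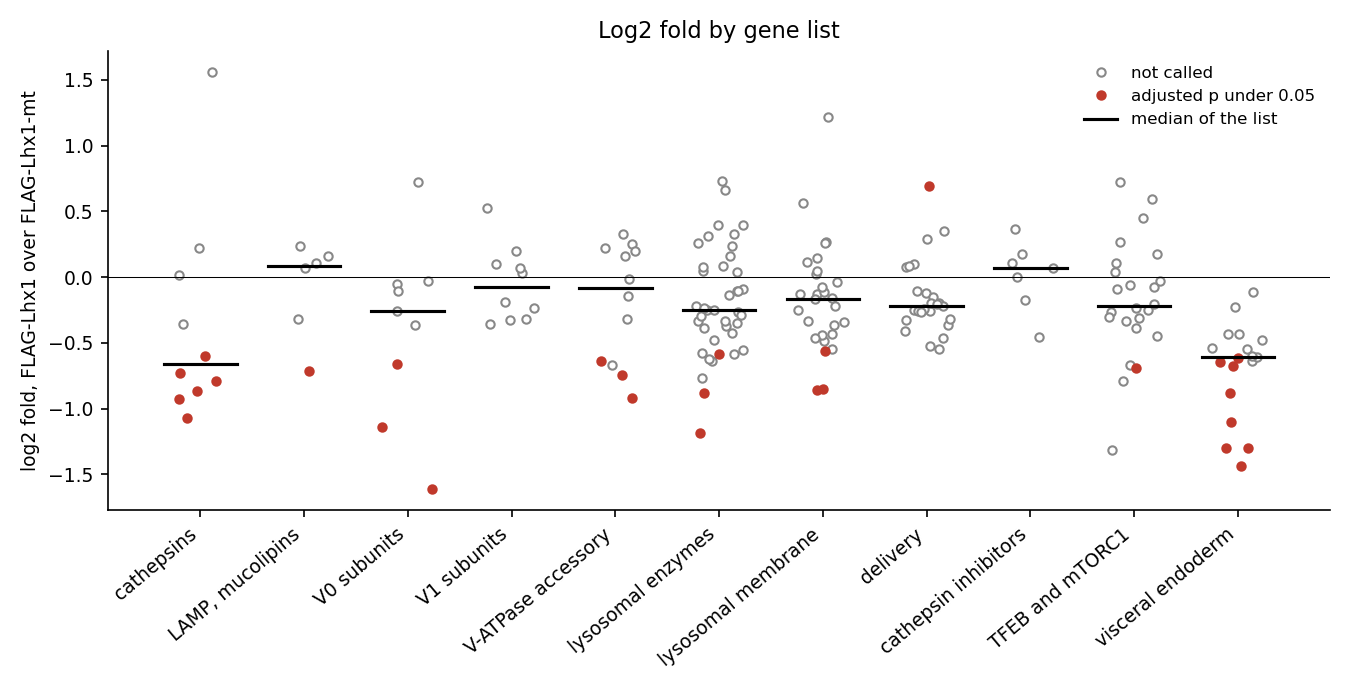
Log2 fold changes of FLAG-Lhx1 over FLAG-Lhx1-mt embryos (edgeR) for the members by role, the tested genes of the 6 further lysosomal lists and the visceral endoderm markers, 1 point per gene, filled where the gene was called; a short line is the median of each group. The filled points of every group lie below 0 except for Igf2r among the delivery genes.

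Markers of the visceral endoderm moved with the members. Of 18 markers tested, none of them at 0 counts, 8 fell in FLAG-Lhx1 embryos and 0 rose, and their median log2 fold change was -0.61. Over all tested genes 3.55% were called lower and 2.62% higher. The marker list was chosen with earlier results of these data known. Their summed level was 2695 and 3069 CPM in FLAG-Lhx1 embryos and 5376 and 4596 CPM in FLAG-Lhx1-mt embryos. The apolipoprotein gene Apoa1 had 420.4 and 436.3 CPM in FLAG-Lhx1 embryos and 1108 and 1001 CPM in FLAG-Lhx1-mt embryos (-1.30 ± 0.15, adjusted p = 0.000119, edgeR). Rbp4, the plasma carrier of retinol, had 528.4 and 674.1 CPM in FLAG-Lhx1 embryos and 1092 and 791.9 CPM in FLAG-Lhx1-mt embryos (-0.65 ± 0.18, adjusted p = 0.0432, edgeR). Cldn6, a tight junction gene, had 139.7 and 119.4 CPM in FLAG-Lhx1 embryos and 385 and 315.6 CPM in FLAG-Lhx1-mt embryos (-1.43 ± 0.16, adjusted p = 8.1e-05, edgeR). The groups did not overlap in these genes, where 25.8% of all tested genes had both FLAG-Lhx1 embryos below both FLAG-Lhx1-mt embryos. Omitting replicate 1 of either group ended the call of Rbp4 (-0.51 in the case of FLAG-Lhx1 and -0.40 in that of FLAG-Lhx1-mt), and it also ended with upper-quartile scaling (-0.59) and with GC and length offsets (-0.37). Omitting 1 embryo gave 6 to 13 called markers, the 13 without replicate 2 of FLAG-Lhx1-mt, and the offsets gave 8. The part of the visceral endoderm markers in the result for the members was not tested, and in whole embryos fewer cells of a type and less RNA per cell cannot be told apart.

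Markers of other cells gave few calls. Macrophage and leukocyte markers summed to 3.55 and 4.88 CPM in FLAG-Lhx1 embryos and 3.18 and 3.29 CPM in FLAG-Lhx1-mt embryos, with 11 of 12 under 1 CPM; Mrc1 (1.37 and 1.22 CPM in FLAG-Lhx1 embryos, 0.945 and 0.575 CPM in FLAG-Lhx1-mt embryos) and Ptprc were the highest. Trophoblast markers, led by Krt8 and Plac1, summed to 248.1 and 221.8 CPM in FLAG-Lhx1 embryos and 256.5 and 236.9 CPM in FLAG-Lhx1-mt embryos. Their highest gene had a mean of 220.6 CPM and 7 of the 12 were under 1 CPM, so this sum rests mostly on that gene. Decidua markers, led by Bmp2 and Alpl, summed to 29.2 and 26.9 CPM in FLAG-Lhx1 embryos and 28.3 and 27.9 CPM in FLAG-Lhx1-mt embryos. Erythroid markers summed to 3.82 and 4.53 CPM in FLAG-Lhx1 embryos and 3.26 and 8.15 CPM in FLAG-Lhx1-mt embryos, with Gata1 and Hba-a1 the highest. Only 3 of 12 macrophage, 6 of 12 trophoblast, 7 of 10 decidua and 3 of 9 erythroid markers were tested. No gene of these 4 lists was called by edgeR, where 6.17% of all tested genes were called. The lists are too short to set 0 calls apart from that share. At an unadjusted p under 0.05 there were 1 lower and 1 higher trophoblast marker and 1 higher decidua marker, where 21.3% of all tested genes passed. Parietal endoderm markers, led by Fst and Sparc, summed to 326.2 and 304.9 CPM in FLAG-Lhx1 embryos and 342 and 326.2 CPM in FLAG-Lhx1-mt embryos, with Srgn called lower (-1.76) and Plat higher (2.11); DESeq2 and the fit with offsets did not call Plat, and its log2 fold change ran between 1.24 and 4.04 with 1 embryo omitted.

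Sequence composition also moved with the calls. The 10 called members had a median GC content of 53.3% and a median principal transcript of 2096 bases. They include Atp6v0c-ps2, with a mean of 5.57 CPM. The medians were 44.8% and 2812 bases in the 13 uncalled members over 10 CPM. In the 12 uncalled members at 10 CPM or less they were 49.3% and 2741.5 bases. Over all tested genes the log2 fold change had a rank correlation of 0.245 with transcript length and -0.163 with GC content; this is across genes, which are not independent replicates and share the libraries. With offsets for GC content and length in each library, 6 members were called lower, Ctsa, Ctsb, Ctsc, Ctsh, Atp6v0c and Atp6v0c-ps2. Ctsz (-0.42), Ctsd (-0.34), Mcoln1 (-0.58) and Atp6v0b (-0.37) kept their sign without a call. Of these 6, Ctsc alone depended on an embryo, so Ctsa, Ctsb, Ctsh, Atp6v0c and its pseudogene were the 5 that were called lower in each refit, with any embryo omitted and under each other scaling, filter, tool, block and offset tried.

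**Figure D5:**
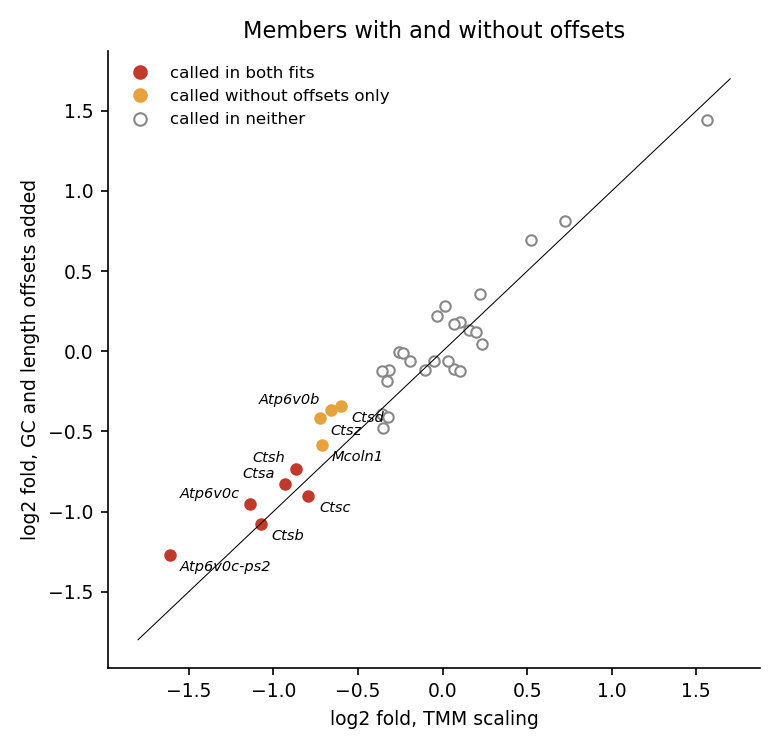
Log2 fold change of each of the 35 members without offsets (x axis, TMM scaling) and with GC and length offsets added (y axis), FLAG-Lhx1 over FLAG-Lhx1-mt embryos, edgeR in each case; the line marks equal values and colours show in which fit a member was called. The 6 members called in both fits include Ctsb and Atp6v0c, and the 4 called without offsets only (Ctsz, Ctsd, Mcoln1 and Atp6v0b) lie above the line.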

How the data were processed

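RNA of 4 whole chimeric embryos was made into libraries by the Geo-seq protocol, a method for small inputs, with cDNA pre-amplified for 10 cycles and 0.5 ng of it taken into each Nextera XT library (paired reads of 100 bp), per the labels' protocols. No molecular identifiers are described, so copies of 1 molecule count as separate reads. The authors deposited raw counts for each Ensembl identifier. The submitters' processing notes name the builds GRCm38 and mm10 and the tools STAR, Subread and featureCounts, without versions. The annotation release, the strand setting and the handling of multi-mapping reads were not stated in the sources read. Total counts of 21267116 to 30434442 limit precision mainly below 10 CPM.

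Symbols were matched for 37693 of 39179 identifiers (96.2%), and positions, lengths and GC content were read from the GENCODE vM21 annotation of GRCm38. Genes were filtered (filterByExpr, minimum count 10, minimum total 15) and scaled by TMM, and a quasi-likelihood model with group as the only term was fitted in edgeR 4.0.16 (R 4.3.3), with Benjamini-Hochberg adjustment over 15822 genes; the biological coefficient of variation was 18.2%. The model has 2 residual degrees of freedom and borrows its spread across genes (prior degrees of freedom 13.4). Fold changes are FLAG-Lhx1 over FLAG-Lhx1-mt, with SE taken from the F statistic. CPM per kilobase uses the principal transcript. The procedure was also run on counts simulated with the mean levels and common spread of the main fit. There 15 of 168 calls were false. A log2 fold change of 1 in size was called in 54% of the changed genes, and that of 2 in 99%. Alternatives were RLE and upper-quartile scaling, no filter or the count rule as filter, DESeq2 1.42.0, limma-voom (limma 3.58.1), the replicate number as a block, GC and length offsets, and each embryo left out; the summing of Atp6v0c and its pseudogene was added after seeing the data. Libraries of a group were not copies of each other (log2 CPM correlation 0.982 between the FLAG-Lhx1 and 0.978 between the FLAG-Lhx1-mt embryos).

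The members, the other lists and the marker lists were chosen with earlier results of these data known. Values in every embryo are given for called members, the 3 members of each role with the highest level per length, and subunits with alternative forms. From other lysosomal lists up to 4 called genes in order of p (failing any call, the 2 of smallest p) are named, and from marker lists the 2 highest and up to 2 called genes.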

Additional observations from a re-analysis of the deposited data

How the results depend on the processing

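With 2 embryos a group, none of the values recomputed turned from a called rise to a called fall or the reverse, but counts of calls moved. Directions moved too: 23 of the 35 members kept their sign whichever embryo was left out, among them the 10 called. The medians of the LAMP and mucolipin genes and of the V1 genes each changed sign over the embryos left out. Over all tested genes, leaving out 1 embryo gave 271 to 977 genes lower and 244 to 831 higher, no count filter gave 952 lower, and GC and length offsets gave 266 lower and 268 higher (290 lower with the replicate block added). For the members, leaving out 1 embryo gave 5 to 10 called lower and 0 to 1 called higher, and the offsets gave 6 lower with or without the block. For the cathepsins it gave 3 to 6 lower, 0 to 1 higher and a median log2 fold change of -0.77 to -0.50, and with the offsets this median was -0.45 in both fits. Mcoln1, the only call among LAMP and mucolipin genes, was lost (0 calls) with the block, upper-quartile scaling and the offsets with and without the block, and 0 to 1 calls remained over the embryos left out; the median of that group ran between -0.20 and 0.18 and was -0.11 with the offsets and block. The V1 median ran between -0.14 and 0.088, and the V0 median between -0.34 and -0.11, with -0.12 under the offsets. Visceral endoderm markers had 8 calls with the offsets and 6 with upper-quartile scaling. In the other lists, leaving out 1 embryo gave 1 to 7 enzymes lower, 0 to 1 delivery genes lower and 0 to 1 higher, 0 to 1 inhibitors lower (median -0.24 to 0.14), 0 to 3 accessory genes lower and 0 to 1 higher, and 0 to 3 TFEB and mTORC1 genes lower. With the offsets 1 enzyme, 1 membrane protein, 0 delivery genes higher and 0 accessory genes lower were called, and with offsets and block 1, 1, 0 and 1, with 0 TFEB and mTORC1 genes. The TFEB and mTORC1 list had 2 calls with the block, 3 with no filter and 2 with DESeq2; the inhibitors had 1 with no filter and 1 with DESeq2, and a median of -0.13 with limma-voom. The cause of these shifts was not tested. Whether equal replicate numbers share a litter or batch is not known, as no label names one. Same-numbered deviations correlated at 0.016 across genes, which with 2 embryos a group cannot settle it. With the number as a replicate block 624 genes were lower and 514 higher, 9 members were lower, and Mcoln1 was the member lost.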
